A study of Mus musculus with 12 samples.

Results

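The Hox cluster genes encode homeodomain transcription factors and lie in 4 clusters, HoxA to HoxD, in mouse. They were taken here as the genes whose symbol is Hoxa, Hoxb, Hoxc or Hoxd followed only by digits and that had a probe set, the group of short probes that reads 1 transcript, with no other symbol. By this rule 33 Hox genes with 48 probe sets were found, of 18193 genes with 1 symbol and 45137 probe sets in all. For a gene with several probe sets, the one whose log2 signal was highest on average over the 6 samples was used, which gave 9 HoxA, 9 HoxB, 7 HoxC and 8 HoxD genes.

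The samples were mouse bone marrow stem cells, sorted by flow cytometry into 3 CD49+ and 3 CD49- preparations. CD49 is the name shared by the alpha subunits of several integrins, and the labels do not say which subunit was stained. About 30 cells went into a preparation, with a purity estimated at 97.03%, per the labels. They were lysed 0 h after sorting and their cDNA was amplified by PCR, so that a value is an average over few cells after amplification. Replicate 1 of each group came under the sample prefix MZ1484 and replicates 2 and 3 of each group under MZ1468, which makes 2 MZ1484 and 4 MZ1468 samples, each prefix with both CD49 groups. Each sample was hybridised to the arrays MOE430A and MOE430B. Separate animals or sorts are not stated for the samples of a group, and the p-values below therefore speak only of the spread among these 6 samples, which may be technical. Strain, age and genotype of the mice are not stated either, nor is any treatment. Below, values of a group are in the order of replicates 1, 2 and 3.

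Hox proteins bind DNA through their homeodomain, usually together with cofactors of the TALE class (Meis, Pbx and Pknox proteins). The genes of a cluster are numbered by position, and genes with the same number in different clusters form a paralogue group. In the embryo they are switched on in the order of their position, low numbers first and toward the head, and trithorax and Polycomb complexes keep them on or off. In blood formation HoxA genes, above all Hoxa9, and their cofactor Meis1 are active in stem and progenitor cells and fall silent as cells mature, and HoxB genes such as Hoxb4 are known for promoting self-renewal when overexpressed.

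Whether a gene gave signal above background was judged on each array against its 27 controls for Bacillus transcripts, which mouse cells lack: the brightest of them set the bound. On MOE430A this bound was 148.7, 100.2 and 84.0 for the CD49+ samples and 96.0, 78.0 and 81.9 for the CD49- samples, and on MOE430B it was 1203.3, 1465.5 and 1319.8 against 843.8, 1148.0 and 850.0. On MOE430B each CD49+ bound was higher than all CD49- bounds, and on MOE430A the groups overlapped. Above it lay 39.5% to 53.5% in CD49+ and 46.9% to 61.1% in CD49- samples of the probe sets of MOE430A, and 16.5% to 19.5% in CD49+ and 23.0% to 28.6% in CD49- samples on MOE430B, where the groups did not overlap. The 3' to 5' signal ratio of the Actb control, a sign of RNA and amplification length, was 7.48, 8.83 and 19.84 in CD49+ and 2.63, 9.87 and 11.05 in CD49- samples on MOE430A, lowest in CD49- replicate 1. On MOE430B it was 11.67, 11.43 and 14.66 in CD49+ and 3.26, 9.45 and 6.52 in CD49- samples, where the groups did not overlap. The same ratio of the Gapdh control was 1075.77, 13.92 and 1146.15 in CD49+ and 95.73, 107.95 and 276.23 in CD49- samples on MOE430A. For MOE430B the Gapdh ratio was 980.96, 13.34 and 172.52 in CD49+ and 130.74, 77.73 and 239.42 in CD49- samples. It was lowest in CD49+ replicate 2 on both designs, and the groups overlapped on both. The part of either ratio in the Hox values was not tested. Of the 18 measured haematopoietic stem and progenitor markers, all were above the bound in 3 or more samples and 14, Kit, Cd34 and Mecom among them, in all 6. Kit was near the bound in CD49- samples, at 135.6, 125.7 and 95.9 against 96.0, 78.0 and 81.9. Of the 15 measured mesenchymal and osteolineage markers, whose cells also express many Hox genes, 3 (Col1a1, Ibsp and Twist1) were above it in 3 or more samples and 8, with Col1a2, Pdgfra, Pdgfrb, Lepr and Sp7, in none. Their summed MOE430A signal was 610.1 to 1024.8 in CD49+ and 489.1 to 831.1 in CD49- samples over 10 genes, and its part in the Hox values was not tested. Of the 10 measured endothelial markers, 7 (Tek, Tie1, Emcn, Esam, Egfl7, Vwf and Ptprb) were above the bound in 3 or more samples and 2, Esam and Egfl7, in all 6. Cdh5 was above it in 2 samples, Kdr in 1 and Pecam1 in none. Of the 14 measured markers of committed blood cells, 6 were above it in 3 or more samples. Prtn3 (3991.0 to 12461.7), Lyz2 (2750.4 to 31875.0) and Csf1r (204.4 to 1090.4) were so in all 6. The other myeloid genes Elane and Ctsg were above it in 2 samples each and Mpo in 1. Klf1 and Cd3g were above it in 1 sample each, and Hba-a1, Ebf1 and Cd3e in none.

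Among the 4 clusters, signal above background was most frequent in HoxA. Of the 33 genes, 11 were above the bound in 3 or more samples: 6 of 9 in HoxA, 2 of 9 in HoxB, 2 of 7 in HoxC and 1 of 8 in HoxD. Hoxa7, Hoxa9, Hoxa10, Hoxc9 and Hoxd12 were above it in all 6 samples, and 13 genes in none. By design, 9 of 25 Hox genes on MOE430A reached 3 samples, where 55.8% of all probe sets did, and 2 of 8 on MOE430B, where 22.8% did. HoxA had 7 genes on MOE430A, of which Hoxa4, Hoxa7, Hoxa9 and Hoxa10 reached 3 samples, near the share of all probe sets there. Its 2 genes on MOE430B, Hoxa3 and Hoxa5, did too. On MOE430A and MOE430B, HoxB had 8 and 1 genes, HoxC 5 and 2 and HoxD 5 and 3, so the clusters were not judged by equal bounds. All 6 samples were reached by 5 of 25 on MOE430A against 26.7% of all probe sets, and by 0 of 8 on MOE430B against 7.17%. No sample was reached by 9 of 25 and 4 of 8, against 27.4% and 57.7% of all probe sets. The Hox probe sets were the brightest of their genes, while the shares are over every probe set. Among positions, 2 of 7 genes of paralogue groups 1 to 3, 5 of 12 of groups 4 to 8 and 4 of 14 of groups 9 to 13 were above the bound in 3 or more samples.

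**Figure D1:**
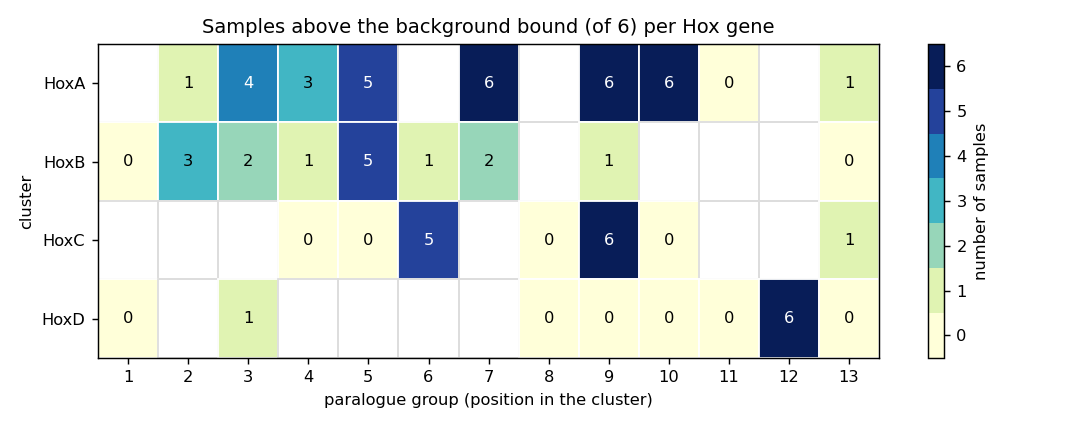
Number of samples, of 6, in which each Hox gene's signal was above the background bound of its array. Rows are the clusters, columns the paralogue groups 1 to 13, and empty cells have no gene with a probe set of its own. Of the 5 cells with a 6, 3 lie in HoxA, at groups 7, 9 and 10.

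In each sample 8, 12 and 9 of the 33 genes were above the bound in the CD49+ group and 15, 10 and 12 in the CD49- group. Fewer cells with a transcript and less of it per cell cannot be told apart in such samples. In every sample HoxA held 5 or 7 of these, 7 in CD49- replicate 1 only. The CD49- sample with the most genes above the bound, replicate 1, had 4 of its 15 on MOE430B. CD49+ replicate 1, the other MZ1484 sample, had the fewest genes above the bound and the highest MOE430A bound.

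Hoxa9, which sustains stem and progenitor proliferation and is a leukaemia gene when overexpressed, gave signals of 9901.8, 1371.3 and 5444.1 in CD49+ samples, against 5451.4, 4281.8 and 5500.7 in CD49- samples. The CD49- samples lay close together, inside the much wider CD49+ range. A second Hoxa9 probe set gave 28.6 to 83.1 and was above the bound in 0 of 6 samples, so the probe sets of this gene disagree. Hoxa10, a regulator of myeloid and progenitor growth, had 2802.4, 2236.7 and 1487.6 in CD49+ samples and 4511.0, 1465.4 and 2388.8 in CD49- samples. The groups overlapped, and both MZ1484 samples lay above all 4 MZ1468 samples. Its MOE430B probe set was under the bound in all 6 samples.

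Hoxa7, a further member of the HoxA group active in progenitors, had 371.0, 561.0 and 265.5 in CD49+ samples, against 229.5, 237.8 and 382.9 in CD49- samples. The ranges overlapped, with the highest value in CD49+ replicate 2. Hoxa5, whose human counterpart takes part in the choice between erythroid and myeloid fates, was represented on MOE430B by a probe set whose name ends in x_at, the manufacturer's mark for probes that may also match other transcripts. It gave 44188.2, 1309.3 and 5966.8 in CD49+ samples and 121750.0, 12643.3 and 9960.8 in CD49- samples. Replicate 1 was the brightest sample of both groups by a wide margin. CD49+ replicate 2 was the only sample under the bound. The MOE430A probe set of Hoxa5 carries no such mark and gave 1294.6, 256.6 and 234.9 in CD49+ samples, against 5170.0, 296.8 and 396.8 in CD49- samples, above the bound in all 6. On it, too, replicate 1 was the brightest of both groups and the CD49- group's value the higher of that pair.

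Hoxa3 and Hoxa4, from the low-numbered end of the cluster, were near the bound. Hoxa3 had 1488.2, 1431.6 and 948.3 in CD49+ samples and 1227.4, 1559.9 and 909.7 in CD49- samples on MOE430B, above the bound in 1 CD49+ and 3 CD49- samples although the ranges nearly coincide. Its other 3 probe sets were above the bound in 0 of 6 samples. Hoxa4 had 79.5, 101.6 and 233.6 in CD49+ samples, against 112.2, 31.5 and 44.0 in CD49- samples, above the bound in 3 of 6, and was too dim on average to be tested. Hoxa2 (29.3 to 106.6) and Hoxa13 (14.5 to 136.5) were above it in 1 sample each. Hoxa11, next to Hoxa10 in the cluster, stayed between 6.7 and 33.5 and above the bound in no sample.

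The promoters of Hoxa5, Hoxa7, Hoxa9 and Hoxa10, neighbouring genes with signal in at least 5 of 6 samples, are shown beside that of Hoxa11, which had none. They are RefSeq sequences of the assembly GRCm38.p6, minus strand of chromosome 6, 300 bases from 250 before to 50 after the start. Capitals mark matches on either strand to TATAAA, the letters of a TATA box, and CCAAT, those of a CCAAT box.
Hoxa5, chr6:52204538-52204837: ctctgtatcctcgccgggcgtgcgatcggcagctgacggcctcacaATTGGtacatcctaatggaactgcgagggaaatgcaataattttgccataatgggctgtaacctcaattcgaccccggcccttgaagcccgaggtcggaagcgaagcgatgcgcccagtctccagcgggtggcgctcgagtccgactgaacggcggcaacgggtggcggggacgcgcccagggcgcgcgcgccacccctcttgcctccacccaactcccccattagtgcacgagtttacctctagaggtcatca
Hoxa7, chr6:52218524-52218823: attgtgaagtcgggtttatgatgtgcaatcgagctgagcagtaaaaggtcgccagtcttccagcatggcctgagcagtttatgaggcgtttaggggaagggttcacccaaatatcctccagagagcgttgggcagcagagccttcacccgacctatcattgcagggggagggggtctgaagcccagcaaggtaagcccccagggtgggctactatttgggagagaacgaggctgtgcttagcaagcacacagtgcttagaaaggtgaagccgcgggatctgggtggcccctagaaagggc
Hoxa9, chr6:52227321-52227620: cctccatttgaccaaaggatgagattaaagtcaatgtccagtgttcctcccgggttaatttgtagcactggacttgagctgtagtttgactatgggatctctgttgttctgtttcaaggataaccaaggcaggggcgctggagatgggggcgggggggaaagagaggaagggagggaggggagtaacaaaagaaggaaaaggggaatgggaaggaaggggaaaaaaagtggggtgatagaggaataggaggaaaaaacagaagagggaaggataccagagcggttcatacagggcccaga
Hoxa10, chr6:52234890-52235189: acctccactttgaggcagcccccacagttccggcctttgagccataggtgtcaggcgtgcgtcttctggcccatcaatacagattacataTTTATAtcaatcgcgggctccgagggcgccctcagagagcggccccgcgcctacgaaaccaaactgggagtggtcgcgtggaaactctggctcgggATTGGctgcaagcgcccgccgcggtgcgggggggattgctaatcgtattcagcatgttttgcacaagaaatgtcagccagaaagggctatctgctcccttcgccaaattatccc
Hoxa11, chr6:52245761-52246060: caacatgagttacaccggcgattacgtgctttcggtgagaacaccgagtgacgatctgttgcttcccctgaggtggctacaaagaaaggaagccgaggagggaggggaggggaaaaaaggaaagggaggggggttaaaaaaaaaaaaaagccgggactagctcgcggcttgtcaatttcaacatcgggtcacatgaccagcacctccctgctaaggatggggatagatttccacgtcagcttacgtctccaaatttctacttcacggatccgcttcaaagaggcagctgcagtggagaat
The Hoxa5 promoter holds 1 CCAAT match, from base 47, and the Hoxa10 promoter a TATAAA match from base 91 and a CCAAT match from base 187. As printed these matches read ATTGG and TTTATA, so they lie on the other strand, and whether they act as such boxes was not tested. Neither TGATNNAT, a composite site of Pbx and Hox proteins, nor TGACAG, a Meis site, was found in these 5 windows, nor TATAAA or CCAAT in those of Hoxa7, Hoxa9 and Hoxa11. Of 32851 RefSeq promoters of this length, 13.6% hold TATAAA, 37.4% CCAAT, 8.85% TGATNNAT and 19.2% TGACAG. CpG dinucleotides, the sites of DNA methylation, numbered 29 in Hoxa5, 21 in Hoxa10, 15 in Hoxa11, 9 in Hoxa7 and 4 in Hoxa9, where the median of all promoters was 7 and the quartiles 3 and 20. A second Hoxa10 start has 12. In all, 19 of the 33 Hox genes had a promoter in that table, among them 6 of the 11 with signal in 3 or more samples and 9 of the 13 with none.

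In HoxB, 2 genes were above the bound in 3 or more samples. Hoxb5 had 417.4, 88.9 and 1506.6 in CD49+ samples and 166.7, 1278.2 and 661.3 in CD49- samples, above the bound in 5. The samples spread widely in both groups, and the lowest and the highest were both CD49+. Hoxb2, a low-numbered HoxB gene known for patterning the hindbrain, had 78.4, 134.2 and 36.3 in CD49+ samples, against 5598.8, 80.1 and 74.9 in CD49- samples. A single sample, CD49- replicate 1, held nearly all the Hoxb2 signal, and the other 5 were near or under the bound.

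Hoxb3 ranged over 646.7 to 3011.4 in CD49+ and 683.7 to 3746.9 in CD49- samples on MOE430B and was above the bound in 1 sample of each group. Its MOE430A probe set was above it in none. Hoxb4, known for expanding stem cells when overexpressed, ranged over 19.4 to 148.3 in CD49+ and 9.1 to 79.5 in CD49- samples and was above the bound in 1 of 6 samples on each of its probe sets. Hoxb7 was above it in 2 samples and Hoxb6 and Hoxb9 in 1 each. Hoxb1 and Hoxb13 were above it in none. A probe set shared by Hoxb8 and Hoxb7 also stayed under the bound in all 6 samples.

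Hoxb5os, an antisense transcript that RefSeq places over Hoxb5 and Hoxb6, is no Hox gene by the rule, but its signal can be set beside them. It gave 822.7, 15926.0 and 7165.2 in CD49+ samples and 1592.0, 5753.5 and 2240.8 in CD49- samples on MOE430B, above the bound in 5 of 6. Replicate 1 was the lowest sample of both groups. The antisense transcripts Hoxa11os and Hoxd3os1 were above the bound in 0 of 6 samples on every probe set. Which strand each probe set reads was not checked here.

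In HoxC, Hoxc9 varied little within a group, with 271.4, 266.5 and 298.8 in CD49+ samples and 412.6, 375.4 and 417.9 in CD49- samples. The groups did not overlap, as for 6.92% of the tested probe sets on MOE430A. Hoxc6 had 78.2, 275.6 and 166.7 in CD49+ samples, against 277.2, 118.0 and 221.0 in CD49- samples, above the bound in 5, with overlapping ranges. Its other 2 probe sets were also above the bound in 5 of 6 samples each. Hoxc13 was above it in 1 sample, and Hoxc4, Hoxc8 and Hoxc10 in none. For Hoxc5 the chosen MOE430B probe set was above the bound in 0 of 6 samples and the one on MOE430A in 3, so that the call of this gene depends on the probe set.

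In HoxD, Hoxd12, a gene known for limb and digit patterning, had 226.8, 318.5 and 138.2 in CD49+ samples and 98.0, 291.4 and 258.1 in CD49- samples. It was above the bound in every sample, in CD49- replicate 1 only just (98.0 against a bound of 96.0), and the ranges overlapped. It has 1 probe set, with no second reading of it here. Hoxd3 was above the bound in 1 sample. Hoxd1, Hoxd8, Hoxd9, Hoxd10, Hoxd11 and Hoxd13 were above it in none, and neither were the 2 probe sets shared by Hoxd3 and Hoxd4.

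**Figure D2:**
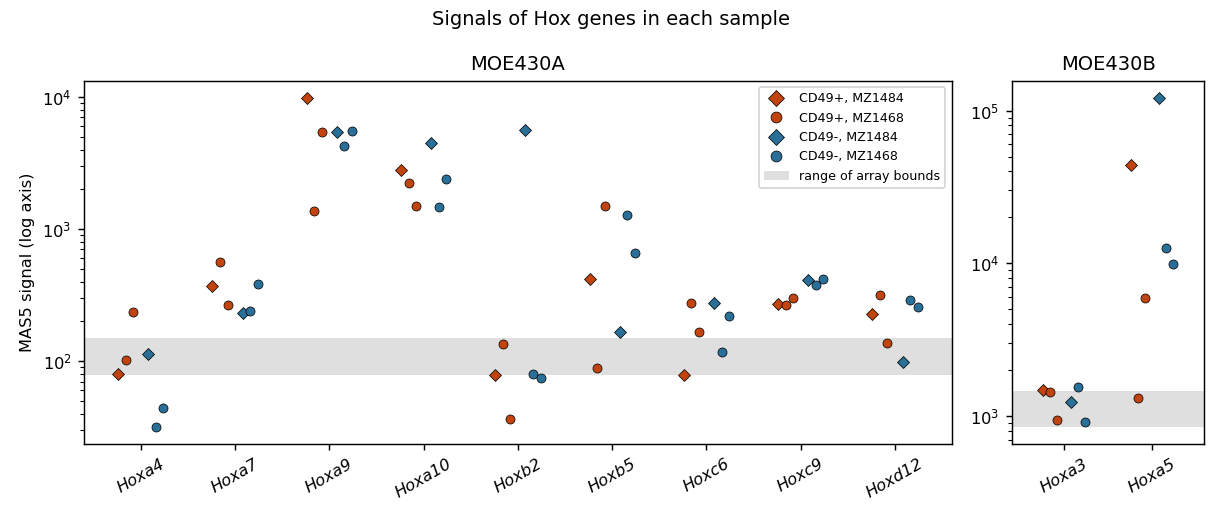
MAS5 signal (log axis) in every sample of the 11 Hox genes above the bound in 3 or more samples, with CD49+ to the left of CD49- for each gene and diamonds for the MZ1484 samples. The grey band spans the bounds of the arrays of that design. Hoxb2 has 1 point far above the band, at 5598.8 in CD49- replicate 1, and both Hoxa5 diamonds lie above all its circles.

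No Hox gene passed the test between CD49+ and CD49- samples. Of the 33 genes, 12 were bright enough to be tested. In CD49+ samples 3 had the higher mean and 9 the lower, with a median log2 difference of -0.27, where all tested probe sets had -0.07 on MOE430A and 0.03 on MOE430B and 54.4% and 48.1% of them were below 0. None of the 12 had a limma adjusted p at or under 0.05, and none an unadjusted p under 0.05. Over all probe sets 0% were called on both designs, and 2.4% on MOE430A and 3.68% on MOE430B had an unadjusted p under 0.05. With arrays scaled to a common median, the MOE430A median was 0.049, and with quantile normalization Hoxb5 turned to 0.01.

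The widest differences were those of Hoxb2, at -1.94 ± 1.53 (SE), and Hoxa5, at -1.78 ± 1.58, on the log2 scale with a pseudocount that understates dim genes. The smallest limma adjusted p among the 12 genes was 0.999. Hoxb2 differed by -5.74 within MZ1484 (1 against 1 sample) and by -0.05 within MZ1468 (2 against 2), so its mean difference rested on CD49- replicate 1. Hoxa5 was lower in CD49+ within both prefixes, by -1.46 and -1.93, and its MOE430A probe set gave -0.95 ± 1.40. The 1 tested Hox gene whose groups did not overlap was Hoxc9, at -0.49 ± 0.73 over all samples, -0.56 within MZ1484 and -0.45 within MZ1468 (limma adjusted p = 1.00, unadjusted p = 0.523). Groups did not overlap for 6.92% of the tested probe sets on MOE430A and 9.26% on MOE430B. For Hoxa9 (0.86 and -0.82), Hoxb5 (1.20 and -1.17), Hoxb3 (-2.31 and 0.67), Hoxc6 (-1.53 and 0.35) and Hoxd12 (1.02 and -0.33) the within-prefix differences, MZ1484 first, had opposite signs.

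**Figure D3:**
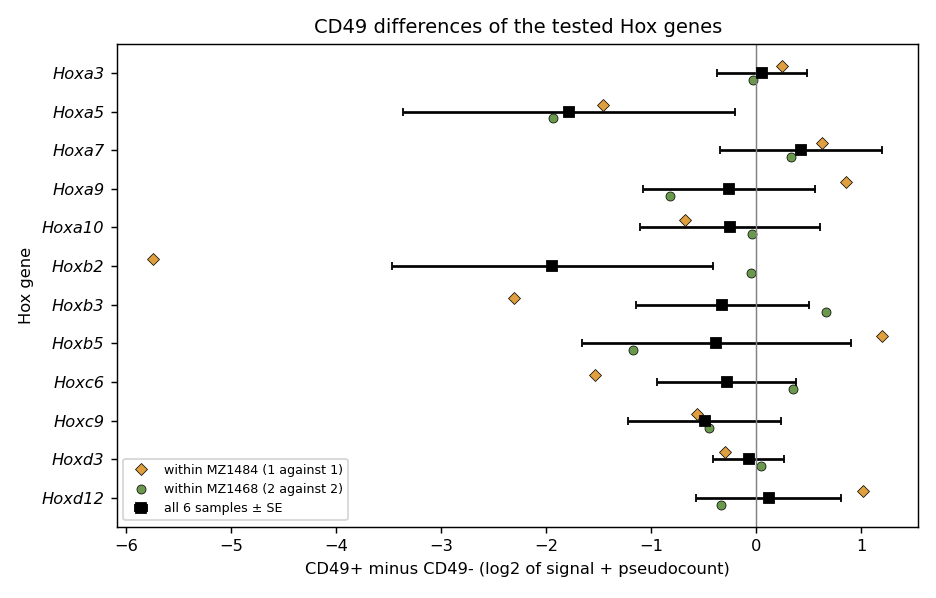
Log2 difference, CD49+ minus CD49-, of the 12 tested Hox genes. Black squares are the limma estimates over all 6 samples with bars of 1 SE, diamonds the differences within MZ1484 and circles those within MZ1468. All bars but those of Hoxa5 and Hoxb2 cross 0, and the Hoxb2 diamond stands at -5.74 while its circle is at -0.05. Hoxd3 was under the bound in all CD49+ samples and has only a limit there.

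The sample prefix was the other labelled split. Between MZ1484 and MZ1468 samples, with the CD49 group in the fit, 839 probe sets on MOE430A (7.42%) and 45 on MOE430B (0.4%) had a limma adjusted p at or under 0.05, of which 708 and 34 were lower in MZ1484. These counts fell to 0 on MOE430A without CD49+ replicate 3, CD49- replicate 2 or CD49- replicate 3, and on MOE430B without any of these or CD49+ replicate 2. No chosen Hox probe set was among those called. Of the 12 tested genes 7 were higher and 4 lower in MZ1484, with a median log2 difference of 0.29, where all tested probe sets had -0.43 on MOE430A and -0.06 on MOE430B and 60.2% and 52.6% of them were below 0. With quantile normalization Hoxa7, Hoxb5, Hoxc6 and Hoxd12 turned positive, and with median centring Hoxa7 did and Hoxc6 came to 0.00. The MOE430A median was -0.16 with arrays scaled to a common median and -0.004 with quantile normalization.

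Hoxa5 was the 1 Hox gene with an unadjusted p under 0.05, where 26.5% of the tested probe sets on MOE430A and 14.9% on MOE430B had one. It was higher in MZ1484 samples by 3.66 ± 0.80 on the log2 scale (SE, limma unadjusted p = 0.00421, adjusted p = 0.121), with a mean log2 value of 16.17 ± 1.03 in MZ1484 (SD, n = 2) and 12.51 ± 1.41 in MZ1468 (SD, n = 4). On its MOE430A probe set the difference was 3.04 ± 0.77, from means of 11.36 ± 1.40 and 8.31 ± 0.30 (limma adjusted p = 0.067). That probe set passed the threshold with quantile normalization (limma adjusted p = 0.0442) and without the mean-variance trend (0.0384). On both probe sets each MZ1484 sample was above all 4 MZ1468 samples. The groups of samples did not overlap for 3 of the 12 genes, Hoxa5, Hoxa10 and Hoxd3, where the samples of 37.4% of those tested on MOE430A and 25.8% on MOE430B did not.

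Hoxb2 gave 2.91 ± 1.29 (limma adjusted p = 0.215), Hoxa9 1.01 ± 0.75 and Hoxa10 0.93 ± 0.68, none of them called. Hoxd3 was under the bound in all 4 MZ1468 samples and has only a limit there. Hoxb5 gave -1.11 ± 1.25 and Hoxc9 0.00 ± 0.62. Hoxb5os had a difference of -2.30 ± 0.89 (limma unadjusted p = 0.0425, adjusted p = 0.314), opposite in sign to that of Hoxa5. The prefix coincided with the day of scanning in every pair of arrays, so sample batch and scan cannot be told apart.

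**Figure D4:**
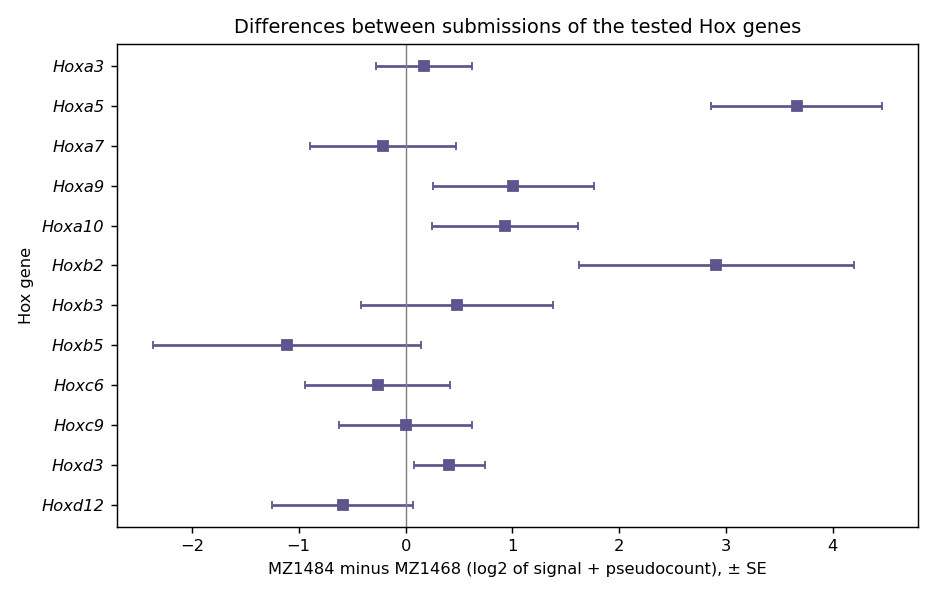
Log2 difference, MZ1484 minus MZ1468, of the 12 tested Hox genes, with the CD49 group in the fit and bars of 1 SE. Hoxa5 lies farthest right at 3.66, followed by Hoxb2 at 2.91, and Hoxb5 farthest left at -1.11.

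Whether the CD49 difference itself changed between prefixes was tested with an interaction term, in which MZ1484 has 1 sample per group and the spread comes from MZ1468. Hoxb2 gave -5.69 ± 1.29 (SE, limma unadjusted p = 0.00605, adjusted p = 0.0945), the only one of the 12 genes with an unadjusted p under 0.05. Of all tested probe sets 20.5% on MOE430A and 11.6% on MOE430B had such a p, and 2.17% and 0% were called. Hoxb3 gave -2.98 ± 1.41 and Hoxb5 2.37 ± 2.43, neither with an unadjusted p under 0.05.

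Values were taken for 8 TALE cofactor genes, which help Hox proteins bind DNA. Meis1, the partner of Hoxa9 in stem cells and leukaemia, had 7136.8, 5332.9 and 1756.2 in CD49+ samples, against 1133.5, 1188.8 and 2031.4 in CD49- samples. The CD49+ values reached higher, and the ranges overlapped through CD49+ replicate 3. The difference was 1.52 ± 0.90 (SE, limma unadjusted p = 0.133, adjusted p = 1.00). Meis2, its close relative, had 5863.9, 2276.5 and 1470.9 in CD49+ and 1778.4, 1386.0 and 1809.4 in CD49- samples, a difference of 0.68 ± 0.67.

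Pbx3, a Pbx protein that binds DNA with Hoxa9 and Meis1, had 315.0, 1905.0 and 3954.6 in CD49+ samples and 96302.9, 3333.2 and 7731.2 in CD49- samples. Replicate 1 held both extremes, the lowest sample among CD49+ and the highest among CD49-. The difference was -3.15 ± 1.49 (limma unadjusted p = 0.0745, adjusted p = 0.999), -7.73 within MZ1484 and -0.85 within MZ1468. Meis3 (-0.49 ± 0.93), Pbx2 (0.09 ± 0.89) and Pbx4 (0.11 ± 0.77) differed by less than their errors. Pknox1 and Pknox2 were under the bound in all 6 samples. None of the 6 tested cofactors was called in either comparison.

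**Figure D5:**
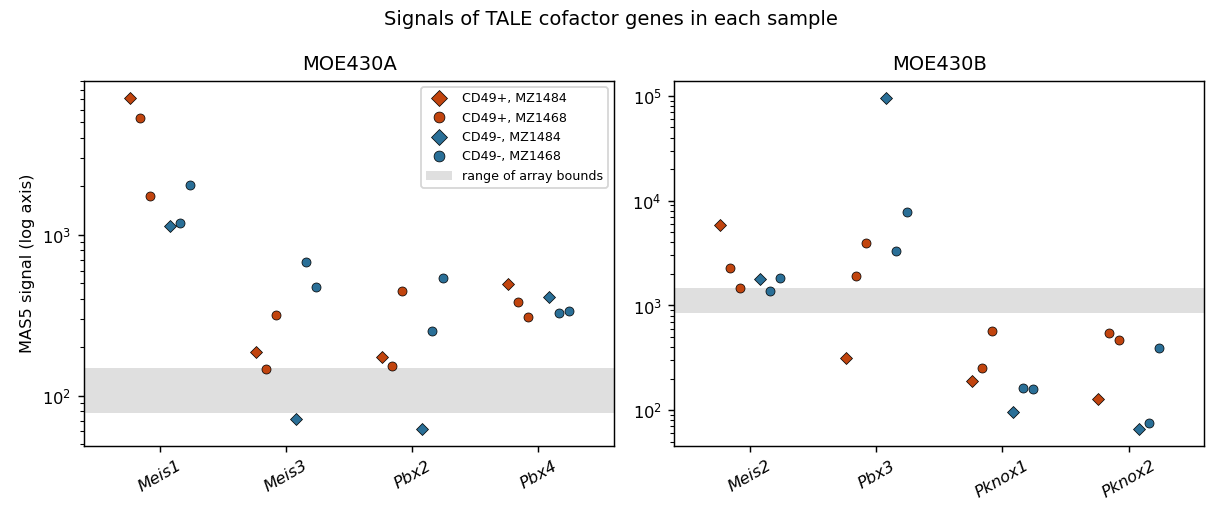
MAS5 signal (log axis) in every sample of the 8 measured TALE cofactor genes, drawn as in the plot of Hox signals, with CD49+ to the left of CD49-. Meis1 values reach 7136.8 in CD49+ and 2031.4 in CD49- samples, and 1 Pbx3 sample, CD49- replicate 1, stands at 96302.9.

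Among trithorax-side regulators, which keep Hox genes on, 16 of 17 were measured and 15 tested, 5 higher and 10 lower in CD49+ samples with 0 called. The smallest unadjusted p-values in that limma fit were those of Kmt2b (-2.97 ± 1.26, unadjusted p = 0.0519), Aff1 (-1.29 ± 0.59, unadjusted p = 0.0643) and Mllt1 (-1.92 ± 1.19, unadjusted p = 0.148). Kmt2a is the better known of the histone methyltransferases that act on HoxA genes, and Kmt2b its paralogue. Kmt2b had 49.9, 585.2 and 320.8 in CD49+ samples, all under the bound, against 401.0, 3010.6 and 17855.5 in CD49- samples, the lowest of them also under it. Aff1 and Mllt1 encode elongation factors fused to Kmt2a in human leukaemia. Aff1 was the 1 of these 3 without overlap, at 55.2, 36.2 and 142.8 in CD49+ and 145.4, 356.9 and 167.9 in CD49- samples. Between prefixes, 12 were lower and 3 higher in MZ1484, and 2 were called lower, where 6.26% of probe sets on MOE430A were. Both were under the bound in both MZ1484 samples. Ash2l, a subunit of these methyltransferase complexes, was at least 8.97-fold lower there (limma adjusted p = 0.0257), and Hcfc1, which binds them, at least 5.65-fold lower (limma adjusted p = 0.0315). Without CD49+ replicate 3, CD49- replicate 2 or CD49- replicate 3 neither was called.

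Of 25 Polycomb-side genes, which keep Hox genes silent, 24 were measured and 21 tested, 14 higher and 7 lower in CD49+ samples with 0 called. Ring1, a ubiquitin ligase of Polycomb complex 1, had -2.76 ± 1.36 (limma unadjusted p = 0.0805), its partner Bmi1, needed for stem cell self-renewal, 1.93 ± 0.95 (unadjusted p = 0.0813) and Asxl2 -1.74 ± 0.93 (unadjusted p = 0.108). Ezh1, Ezh2, Eed and Suz12, the core of Polycomb complex 2, were above the bound in all 6 samples. Ezh2, the methyltransferase, was only just so in CD49- replicate 1, with 106.6 against a bound of 96.0, where the other 5 samples had 5846.0 to 21097.7. Any bearing of Ezh2 on the Hox values was not tested. Its interaction of CD49 group and prefix was called (5.49 ± 0.52, limma adjusted p = 0.0254).

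Among upstream factors, all 13 were measured and 7 tested, 6 higher and 1 lower with 0 called. Rxra, a partner of the retinoic acid receptors, had -1.50 ± 0.70 (limma unadjusted p = 0.0674) without overlap of the groups, Rarg 1.14 ± 1.31 (unadjusted p = 0.414) and Ctcf, which sets boundaries in the clusters, 0.55 ± 0.97 (unadjusted p = 0.588). Cdx1 and Cdx4, homeobox activators of Hox genes, were above the bound in no sample and Cdx2 in 4. Gmnn, which encodes geminin, a replication licensing inhibitor that also binds Polycomb and Hox proteins, fell by 5.60 ± 0.72 in MZ1484 samples (limma adjusted p = 0.0217), a call that was also lost without any of those 3 samples.

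Genes beside the Hox clusters gave 10 tested of 13 measured, 4 higher and 6 lower in CD49+ samples with 0 called. Smug1, a DNA repair glycosylase, had -2.17 ± 0.99 without overlap (limma unadjusted p = 0.0667), Jazf1 -1.42 ± 0.77 (unadjusted p = 0.11) and Cbx5, a heterochromatin protein, -2.38 ± 1.63 (unadjusted p = 0.186). A single sample carried the Cbx5 value, with 102.2 in CD49+ replicate 1 and 10232.7 to 16043.9 in the other 5. The Cbx5 difference was -6.32 within MZ1484 and -0.41 within MZ1468, -0.27 without that sample, and its interaction with the prefix was called (-5.92 ± 0.63, limma adjusted p = 0.0312).

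The cell type markers read beside the Hox genes were not called either. Of 18 tested stem and progenitor markers 11 were higher and 6 lower in CD49+ samples, and Slamf1, under the bound in all CD49+ samples, had the smallest limma p (unadjusted 0.0047), before Cd34 (2.31 ± 1.18, unadjusted p = 0.0903) and Erg (2.11 ± 1.16, unadjusted p = 0.114). The means of Cd34 and Erg rested largely on MZ1484, and both were lowest in CD49- replicate 1: Cd34 differed by 5.85 within MZ1484 and 0.53 within MZ1468, and Erg by 4.82 and 0.76. The 3 tested mesenchymal markers were Ibsp (0.80 ± 0.49), Col1a1 (-0.10 ± 0.47) and Dcn, which was under the bound in all 6 samples. Of 6 tested endothelial markers 2 were higher and 4 lower, among them Vwf (-2.33 ± 0.78), Esam (-2.42 ± 1.15) and Ptprb (0.27 ± 0.48). Of 6 tested markers of committed blood cells 2 were higher and 4 lower, with Pf4 (-2.10 ± 1.72), Lyz2 (-0.82 ± 0.93) and Ebf1, under the bound throughout. Between prefixes, 5 of the 18 stem and progenitor markers were higher in MZ1484 with an unadjusted p under 0.05 and none lower, and 1 of the 6 committed markers was higher, with no call in either list. They were Mecom (2.99 ± 0.83), Procr (3.43 ± 1.28), Hlf (1.70 ± 0.44), Lmo2 (0.55 ± 0.17) and Ly6e (0.55 ± 0.19), and Lyz2, the lysozyme of myeloid cells (2.20 ± 0.55). Mllt3, of the trithorax-side list, was higher by 3.92 ± 0.66 (limma unadjusted p = 0.00123, adjusted p = 0.0835). In that list 12 of the 15 tested were lower in MZ1484. These 7 genes were named after their values were seen, for a higher signal in MZ1484 with a small p. That choice favours genes in which both MZ1484 samples are brighter than the other 4, as all 7 were. Of all tested probe sets, 26.5% on MOE430A and 14.9% on MOE430B had a prefix p under 0.05. For 37.4% and 25.8% the prefixes did not overlap, in either direction. Whether the 7 genes and Hoxa5 go together was not tested.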

How the data were processed

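Expression was measured in 6 samples on 2 chip designs (12 arrays). The deposited values were linear intensity signals, 1 per probe set. The authors computed them with the MAS5 algorithm, as the submitters' processing notes record without version or settings. The trimmed mean was about equal on all arrays (1500.6 to 1501.2), and no scaling was added. Genes came from the platform annotation, with symbols checked against RefSeq.

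A pseudocount, the 25th percentile of the design's signals (27.0 on MOE430A, 139.8 on MOE430B), was added before taking log2. Probe sets at or above the median mean were tested (11313 and 11256) with limma 3.58.1 in R 4.3.3 (lmFit, eBayes with trend), each design by itself, with Benjamini-Hochberg adjustment at 0.05. The fits were tested on simulated data. The comparisons fitted were CD49 group, sample prefix with the CD49 group as covariate, and their interaction. Alternatives changed the filter, pseudocount, scaling, trend, bound, probe set and samples.

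Hox genes above the bound in 3 or more samples are given per sample, others by range. The 8 TALE cofactors with values here are named, the 3 smallest p-values of each further list, and any Hox gene with an unadjusted p under 0.05. Other genes, among them those called between prefixes, were named after their values were seen. The Hox genes and lists were chosen with earlier results of these data known. The number of arrays limits the precision.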

Additional observations from a re-analysis of the deposited data

Results flagged for a closer look

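For Hoxb2 the difference between CD49+ and CD49- samples was itself different between the prefixes, by -5.69 on the log2 scale (limma unadjusted p = 0.00605, adjusted p = 0.0945). It was -5.74 within MZ1484, where 1 CD49+ sample at 78.4 stood against 1 CD49- sample at 5598.8, and -0.05 within MZ1468. No second Hoxb2 probe set exists on these arrays.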

How the results depend on the processing

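The CD49 comparison kept 0 calls on both designs under every alternative but 1, added after seeing the data: with the fluidics module, the station part that washed the array, as a random block (each module held 1 CD49 group) it gave 1985 calls on MOE430A and 2 on MOE430B, where the estimated correlation within modules was -0.806 and -0.596. None of the 12 tested Hox genes, 8 of them on MOE430A, was among them, where 1985 of the 11313 tested probe sets of that design were. Of the 28 other named genes 12 were called, Meis1 (2.15, limma adjusted p = 0.0283) included. As each module lies within 1 CD49 group, these calls rest on the estimated negative correlation and are not read as CD49 differences. Apart from the TALE cofactors, those 28 were named for the smallest CD49 p-values of their lists, so their count cannot be set against that of the Hox genes. With the sample prefix as a block 0 were called. No paired analysis was possible because the labels give every sample its own specimen number, which the CD49 groups do not share, so that any pairing of samples would be assumed. The prefix comparison gave 319 calls on MOE430A with no filter and 559 with the pseudocount at the median signal. On MOE430B it gave 149 for the top 25%, 95 with pseudocount 1, 12 with that at the median, 18 with median centring (9 higher and 9 lower, against 11 and 34), 176 without trend and 148 without the CD49 covariate. Leaving out 1 sample gave 0 to 1298 and 0 to 28. The interaction gave 31 calls on MOE430A with no filter, 734 for the top 25%, 77 with quantile normalization and 0 without trend, against 245. The median signal as bound put 9 Hox genes above it in all 6 samples, against 5. The cause was not tested in any of these.

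Of the 12 Hox genes, 4 kept their sign in every CD49 alternative (22 of 195 values turned) and 6 in every prefix alternative (14 of 160). The CD49 difference turned within MZ1468 for Hoxa3 (-0.03), Hoxb3 (0.67), Hoxc6 (0.35), Hoxd3 (0.05), Hoxd12 (-0.33) and Pbx2 (-0.45), and within MZ1484 for Hoxa9 (0.86), Hoxb5 (1.20), Meis3 (1.11), Pf4 (0.32) and Lyz2 (0.69). Quantile normalization turned Hoxb5 (0.01), Meis3 (0.03) and Col1a1 (0.00), which also turned with median centring (0.02) and the module (0.01). Leaving out 1 sample gave ranges of -0.12 to 0.25 for Hoxa3, -0.87 to 0.54 for Hoxa9, -0.63 to 0.17 for Hoxa10, -0.99 to 0.33 for Hoxb3, -1.30 to 0.56 for Hoxb5, -0.64 to 0.12 for Hoxc6, -0.18 to 0.12 for Hoxd3, -0.31 to 0.40 for Hoxd12, -1.71 to 0.32 for the MOE430A probe set of Hoxa5, -1.35 to 0.06 for Meis3, -0.63 to 0.71 for Pbx2, -0.05 to 0.27 for Pbx4, -0.30 to 0.05 for Col1a1 and -0.03 to 0.46 for Ptprb. Differences that kept their sign when 1 sample was left out also moved, with ranges of -3.07 to -0.61 for Hoxa5, 0.17 to 0.67 for Hoxa7, -2.92 to -1.60 for Hoxb2, -0.53 to -0.46 for Hoxc9, 0.14 to 1.09 for Meis2, -4.14 to -1.74 for Pbx3, -4.24 to -1.71 for Kmt2b, -3.44 to -0.27 for Cbx5, 0.94 to 3.29 for Cd34, -3.68 to -0.24 for Pf4 and -1.93 to -0.17 for Lyz2. The prefix difference turned with quantile normalization for Hoxa7 (1.01), Hoxb5 (0.14), Hoxc6 (0.24) and Hoxd12 (0.19), and with median centring for Hoxa7 (0.05) and Hoxc6 (0.00). With 1 sample left out, the prefix ranges were 0.17 to 1.84 for Hoxa9, 3.18 to 4.07 for Hoxa5, -1.01 to 1.96 for Hoxb3, -2.29 to 0.08 for Hoxb5, -1.20 to 0.68 for Hoxc6, -0.05 to 0.06 for Hoxc9 and -1.27 to 0.09 for Hoxd12. Over all alternatives Hoxc9 moved more, from -0.05 to 1.16 between prefixes and from -0.56 to -0.07 between CD49 groups. Without CD49+ replicate 1, Hoxb2 gave 5.75 between prefixes (limma adjusted p = 0.0393), where MZ1484 is the 1 bright sample, CD49- replicate 1, assumed to vary like MZ1468, and without CD49- replicate 1 it was too dim to be tested. The Hoxa5 prefix difference on MOE430B passed the threshold under no alternative. Signals near the bound limit most Hox genes.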
